A study of Mus musculus with 8 samples.

Results

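The semaphorins, plexins and neuropilins form one guidance system of ligands and receptors, and their transcripts were followed in the medial ganglionic eminence (MGE). The MGE is a part of the ventral embryonic forebrain that makes cortical and striatal interneurons, among other neurons. The genes were chosen by name: every array probe whose accession is paired in RefSeq with Nrp1, Nrp2 or a mouse symbol beginning with Sema3, Sema4, Sema5, Sema6, Sema7, Plxna, Plxnb, Plxnc or Plxnd. This gave 29 genes with 49 probes, of 17178 symbols with a probe on the array. The study hybridised RNA of microdissected MGE at E13.5 to 1-colour Agilent whole mouse genome arrays, with 4 WT and 4 Nkx2-1cKO samples. All 8 samples were labelled as C57BL/6. The WT samples were labelled Nkx2-1flox/+;Olig2tva-cre- and the mutants Nkx2-1flox/+;Olig2tva-cre+, so that by their labels both groups carried a floxed Nkx2-1 allele and differed in the Cre, which is driven from Olig2 regulatory sequence. The methods of the study name a homozygous floxed strain for the mutants, and the labels of the arrays give 1 floxed allele. Nothing in the labels says that the arrays came from separate embryos or litters, so the p-values measure the spread between these samples, which may be technical.

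Semaphorins are secreted or membrane-bound proteins that steer axons and migrating neurons, mostly by repulsion. Plexins are their signalling receptors, and neuropilins are co-receptors that bind most secreted class 3 semaphorins and pass the signal on through an A-group plexin. Sema3a is bound mainly by Nrp1 and Sema3f mainly by Nrp2, while Sema3e binds Plxnd1 directly. In the embryonic forebrain, interneurons that leave the MGE for the cortex carry neuropilins and avoid the developing striatum, which makes Sema3a and Sema3f. Down-regulation of Nrp2 by NKX2-1 is a known step in sorting striatal from cortical interneurons.

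Signals were compared on a log2 scale after subtracting the 75th percentile of the array in question, so that a value of 0 is the intensity at that percentile. The level of one probe cannot be set against that of another, and values are compared only between arrays. A gene is represented by its brightest tested probe, and a probe was tested where at least 4 of the 8 arrays showed it well above background. Of the 29 genes, 28 passed this filter with 47 probes, and all 28 representing probes were well above background on all 8 arrays. The remaining gene, Sema3d, a secreted class 3 semaphorin, was well above background on 1 WT array and on no Nkx2-1cKO array, and it was not tested. Changes were tested with limma over all 31283 tested probes with Benjamini-Hochberg adjustment, and the threshold for the adjusted p was 0.05. Values are given as mean ± SD over the 4 arrays of a group, and log2 fold changes with their standard error (SE). In tissue, fewer cells that carry a transcript and less transcript per cell cannot be told apart.

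As a check of the labels, Nkx2-1 itself averaged 1.87 ± 0.056 in WT and -4.46 ± 0.19 in the Nkx2-1cKO. Its log2 fold change was -6.34 (SE 0.11), and how many floxed alleles the mutants carried was not tested. Of 10 MGE genes, 3 fell (Nkx2-1, Lhx6 and Lhx8), and of 10 genes of the neighbouring lateral ganglionic eminence (LGE) and striatum, 6 rose (Meis2, Isl1, Ebf1, Foxp2, Six3 and Zfp503). The share of probes well above background was 71.1% to 79.5% per array. The array of WT replicate 1 stood apart, with a median rise of 1.42 on the log2 scale in the dimmest of 5 brightness bins. The rise was 1.22 in the second dimmest bin and 0.28 in the third. Results are given with and without this array where it matters. The arrays lay on 2 slides that were also scanned separately, each with 2 WT and 2 Nkx2-1cKO samples.

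Among the 28 tested genes, 1 fell (Sema3e) and 0 rose past the threshold. Over all 14449 tested genes, 0.851% fell and 0.491% rose. This fit has no slide term, and with slide as a block 1 of the 28 fell (Sema3e) and 1 rose (Sema3f, adjusted p = 0.0279), while the counts over all genes went from 123 lower and 71 higher to 158 and 116. In the limma fit, 4 of the 28 genes were lower and 2 were higher at an unadjusted p under 0.05, beside 5.22% and 4.26% of all tested genes. In 4 genes (Sema3e, Sema3c, Nrp2 and Plxnb3) every Nkx2-1cKO array lay below every WT array, which is 14.3% of the 28, where 4.02% of all tested genes did so. In 1 gene (Sema3f) every Nkx2-1cKO array lay above every WT array, which is 3.57% of the 28, where 2.82% of all tested genes did so. The median log2 fold change was -0.017 over the 28 genes and -0.0017 over all tested genes. The 95% interval of the log2 fold change lay within 1 of 0, a 2-fold change either way, in 26 of the 28 genes, the other two being Sema3e and Plxnb3, and it lay within 0.5 in 16.

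**Figure D1:**
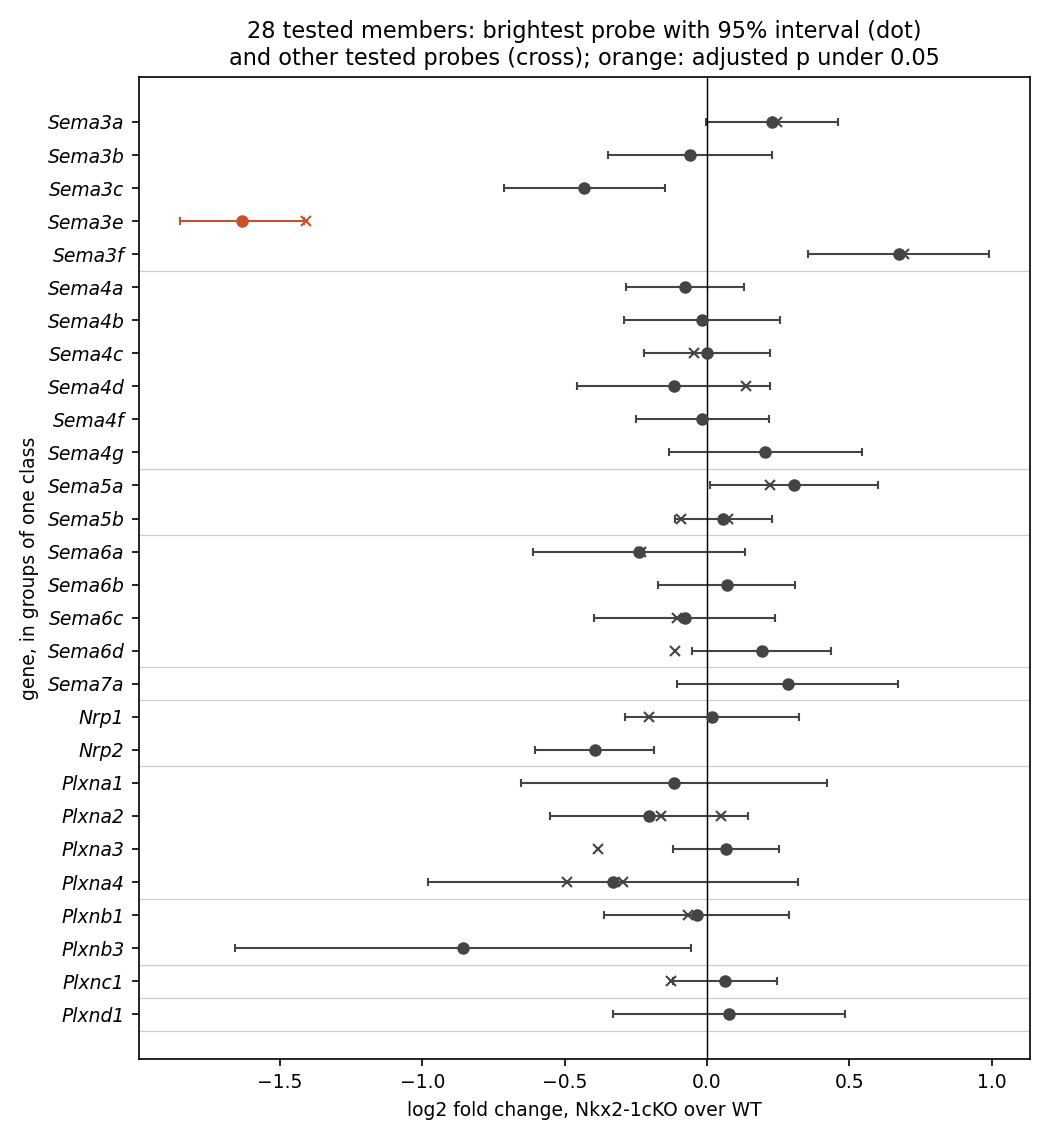
Log2 fold change of each of the 28 tested genes (x axis, Nkx2-1cKO over WT) with its 95% interval, ordered by class (y axis). Dots are the brightest probe, crosses are other tested probes and orange marks an adjusted p under 0.05. Sema3e, at -1.63, is the only gene in orange, and its second probe lies at -1.41.

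Sema3e, a secreted class 3 semaphorin that can signal through Plxnd1 without a neuropilin, was the gene that fell. Its brightest probe had log2 signals of -1.03, -0.98, -1.09 and -1.17 in the WT arrays and of -2.64, -2.60, -2.75 and -2.82 in the Nkx2-1cKO arrays. The groups lay far apart relative to their spread, and WT replicate 1 was inside the range of the other WT arrays. Its averages of -1.07 ± 0.083 in WT and -2.70 ± 0.10 in the mutants differ by -1.63 (SE 0.097, 95% interval -1.85 to -1.42, limma adjusted p = 3.43e-05), and 32.2% of the WT signal was left. An exact two-sided permutation test gave p = 0.0286, the smallest that 4 arrays against 4 allow. The difference was similar on both slides, at -1.65 on slide 1 and -1.62 on slide 2. In the same arrays the summed signal of the 10 MGE genes, in units of the 75th percentile, was 138 to 146 in WT and 109 to 124 in the Nkx2-1cKO, and its part in the Sema3e values was not tested.

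The second Sema3e probe gave the same picture. It read -2.21, -2.24, -2.18 and -2.49 in WT and -3.67, -3.48, -3.83 and -3.77 in the Nkx2-1cKO. The fall on this probe was -1.41 (SE 0.13, limma adjusted p = 0.000552). One more Sema3e probe was well above background on 1 WT array and on no Nkx2-1cKO array and was not tested. It averaged -6.80 ± 0.59 in WT and -8.64 ± 0.39 in the Nkx2-1cKO, near the limit of detection. Under 19 alternative settings the fall of Sema3e stayed past the threshold each time, at between -1.67 and -1.30.

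**Figure D2:**
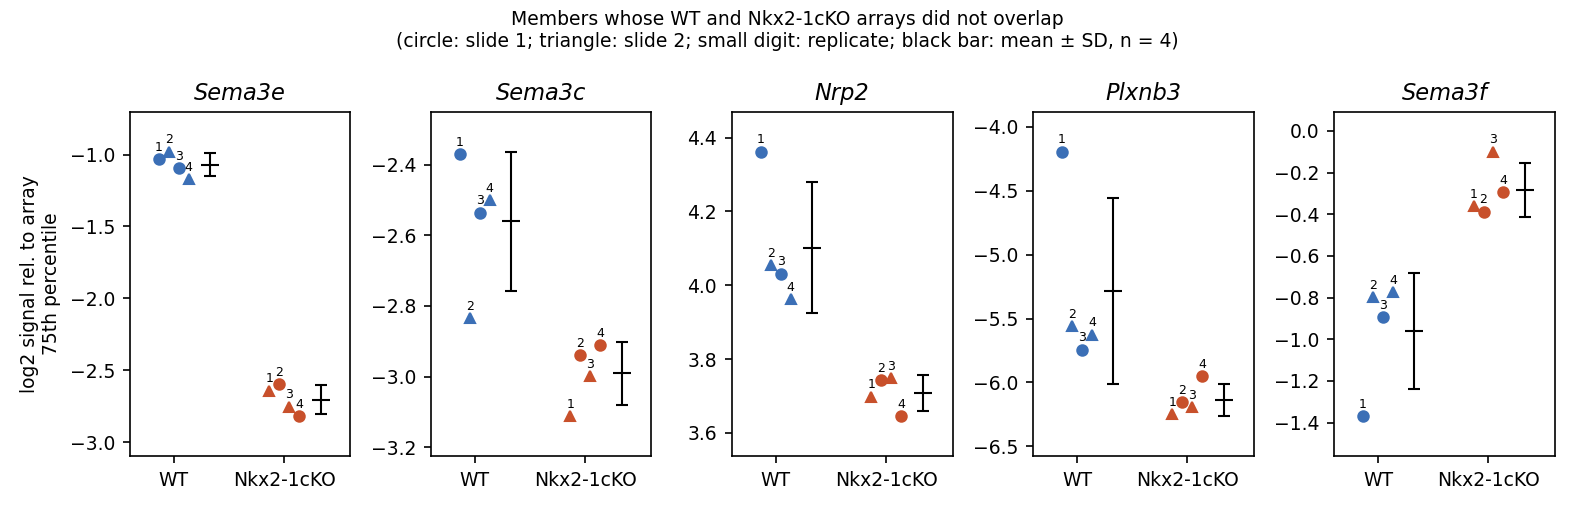
Log2 signal minus the 75th percentile of the array (y axis) in WT and Nkx2-1cKO for the 5 genes whose groups did not overlap. Circles are slide 1 and triangles slide 2, small digits are replicates, and black bars show the mean and SD of 4 arrays. The gap between groups exceeds the spread within them most clearly in Sema3e, and WT replicate 1 is the WT array farthest from the mutants in the other four.

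Promoters are shown for Sema3e, Sema3c and Nrp2, whose mutant signals lay below WT on every array with a size that moved by under 1.5 times without WT replicate 1, so that the sequence before each start can be read beside its value. The stretches are the 250 bases before the annotated start in RefSeq GRCm38.p6, 5′ to 3′, all on the plus strand, with matches to any of 4 motifs in capitals. The motifs, searched on both strands, were CTCAAG and CAAGTG, which are core letters of NKX2-1-type sites and can overlap by 4 letters. The motif TAATTA is a core of LIM homeodomain sites. The motif TGACAG is a core of MEIS sites.
Sema3e, chr5:14025026-14025275: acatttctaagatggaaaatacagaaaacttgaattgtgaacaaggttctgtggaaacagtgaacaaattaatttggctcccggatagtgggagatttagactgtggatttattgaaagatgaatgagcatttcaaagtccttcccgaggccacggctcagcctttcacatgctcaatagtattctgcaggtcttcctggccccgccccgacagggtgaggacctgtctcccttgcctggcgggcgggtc
Sema3c, chr5:17574566-17574815: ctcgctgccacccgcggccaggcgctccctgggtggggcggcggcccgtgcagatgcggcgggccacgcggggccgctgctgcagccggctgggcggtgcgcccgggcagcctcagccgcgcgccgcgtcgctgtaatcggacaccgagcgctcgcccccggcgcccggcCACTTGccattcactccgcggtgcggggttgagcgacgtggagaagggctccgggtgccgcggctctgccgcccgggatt
Nrp2, chr1:62703067-62703316: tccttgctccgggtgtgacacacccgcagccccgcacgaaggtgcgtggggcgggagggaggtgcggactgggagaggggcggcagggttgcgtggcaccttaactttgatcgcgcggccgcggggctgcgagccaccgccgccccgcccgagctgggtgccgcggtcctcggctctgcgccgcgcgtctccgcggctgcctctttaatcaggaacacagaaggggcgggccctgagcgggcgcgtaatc

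The window of Sema3e held none of these letters, nor did that of Nrp2. The window of Sema3c held CACTTG, the reverse complement of CAAGTG. Of 32851 promoter windows of the same length, 13.3% held CTCAAG, 11.6% held CAAGTG, 4.84% held TAATTA and 15.9% held TGACAG on either strand. RefSeq promoters were matched for 24 of the 29 genes, with 34 windows. By gene, CTCAAG was in a window of 2 (Sema4a and Sema6c), CAAGTG in 1 (Sema3c) and TAATTA in 0. TGACAG was in a window of 4 genes (Plxna2, Sema4d, Sema6c and Sema7a). By window, as in the shares above, CTCAAG was in 2 of the 34, CAAGTG in 1, TAATTA in 0 and TGACAG in 6. A match describes letters only.

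Sema3f, the secreted ligand of Nrp2, had the highest log2 fold change of the 28 genes, but it did not pass the threshold. Its signals were -1.37, -0.80, -0.90 and -0.77 in WT and -0.36, -0.39, -0.10 and -0.29 in the Nkx2-1cKO. Every mutant array was above every WT array, and WT replicate 1 was the lowest of all. The averages were -0.96 ± 0.28 in WT and -0.29 ± 0.13 in the mutants. They differ by 0.67 (SE 0.14, 95% interval 0.36 to 0.99, limma adjusted p = 0.0712), or 1.6-fold, with an exact two-sided permutation p of 0.0286. The second probe differed by 0.69 (SE 0.16, limma adjusted p = 0.114), also without overlap of the groups.

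Within slides, the Sema3f difference was 0.79 on slide 1 and 0.55 on slide 2. With slide as a block the same value of 0.67 passed the threshold (limma adjusted p = 0.0279), and with array weights 0.55 did (adjusted p = 0.0300). Without WT replicate 1 it was 0.54 (adjusted p = 0.0546), and with that array left out and slide as a block it was 0.55 (adjusted p = 0.0235). The LGE and striatal genes that rose moved in the same arrays, and the summed signal of that list was 27.4 to 45.9 in WT and 70.4 to 82.1 in the Nkx2-1cKO. The low end in WT was WT replicate 1, and the other WT arrays summed to 39.9 to 45.9. Most of this sum was Meis2, and without it the list summed to 10.2 to 13.2 in WT and 20.9 to 27.0 in the Nkx2-1cKO. The part of such cells in the Sema3f values was not tested.

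Sema3c, a secreted class 3 semaphorin that binds both neuropilins, had signals of -2.37, -2.83, -2.54 and -2.50 in WT and of -3.11, -2.94, -3.00 and -2.91 in the Nkx2-1cKO. The highest mutant array was just below the lowest WT array. The difference of -0.43 did not pass the threshold (SE 0.13, 95% interval -0.71 to -0.15, limma adjusted p = 0.271), and the mutant signal was 74.2% of WT. It was -0.47 on slide 1 and -0.39 on slide 2, and -0.37 without WT replicate 1.

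Sema3a, the main ligand of Nrp1, had signals of -1.12, -0.92, -0.80 and -1.15 in WT and of -0.84, -0.69, -0.83 and -0.72 in the Nkx2-1cKO. One WT array lay among the mutants and the groups overlapped. Its log2 fold change was 0.23 (SE 0.10, 95% interval -0.0042 to 0.46, limma adjusted p = 0.589), with an exact two-sided permutation p of 0.0857. A second probe differed by 0.25 (adjusted p = 0.566), also with overlapping groups. The last tested class 3 gene, Sema3b, differed by -0.059 (adjusted p = 0.886).

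Several class 3 genes are close neighbours in the genome, which the choice by name did not use. In the RefSeq gene order of chromosome 5, Sema3d, Sema3a, Sema3e and Sema3c follow each other, with 0, 3 and 15 protein-coding genes between successive members. Along this stretch the log2 fold changes were 0.23 for Sema3a, -1.63 for Sema3e and -0.43 for Sema3c, and of these Sema3e alone passed the threshold. On chromosome 9, Sema3b and Sema3f are separated by 3 protein-coding genes, with log2 fold changes of -0.059 and 0.67.

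Neuropilins are the co-receptors by which migrating interneurons sense class 3 semaphorins. Nrp2 was measured by 1 probe, with signals of 4.36, 4.05, 4.03 and 3.96 in WT and of 3.70, 3.74, 3.75 and 3.64 in the Nkx2-1cKO. Every mutant array was below every WT array, and WT replicate 1 was the highest. The difference of -0.39 (SE 0.094, 95% interval -0.60 to -0.18, limma adjusted p = 0.119) did not pass the threshold. The mutant signal was 76.1% of WT. A lower Nrp2 signal in the mutants is opposite in direction to the known down-regulation of Nrp2 by NKX2-1, and the reason was not tested. The exact two-sided permutation p was 0.0286. On slide 1 the difference was -0.50 and on slide 2 -0.28, and without WT replicate 1 it was -0.31 (adjusted p = 0.132). Over the 19 alternatives it ran from -0.49 to -0.26 with adjusted p between 0.0524 and 0.600.

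Nrp1 had signals of -1.47, -1.95, -2.08 and -1.85 in WT and of -1.92, -1.85, -1.79 and -1.71 in the Nkx2-1cKO. The mutants lay inside the range of the WT arrays. The difference was 0.017 (SE 0.14, 95% interval -0.29 to 0.32, limma adjusted p = 0.972), and a second probe gave -0.20 (adjusted p = 0.711). Whether the neuropilins differ in their response was not tested.

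The A-group plexins, which signal for class 3 semaphorins bound to a neuropilin and for class 6 semaphorins directly, overlapped between groups in all 4 genes. Plxna1 had signals of -1.42, -2.28, -1.72 and -2.29 in WT and of -2.38, -1.70, -2.35 and -1.74 in the Nkx2-1cKO. These fell into sets by slide and not by genotype, with the slide 1 arrays at -1.74 or above and the slide 2 arrays at -2.28 or below. Between genotypes Plxna1 differed by -0.12 (SE 0.24, 95% interval -0.65 to 0.42, limma adjusted p = 0.880).

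Plxna2, a receptor of Sema6a, had signals of 3.83, 3.44, 3.55 and 3.03 in WT and of 3.12, 3.34, 3.15 and 3.42 in the Nkx2-1cKO. WT arrays held both the highest and the lowest value. The difference was -0.20 (SE 0.15, 95% interval -0.55 to 0.14, limma adjusted p = 0.680), while other probes of the gene gave -0.16 and 0.051. Without WT replicate 1 it was -0.080 and without WT replicate 4 -0.35. Plxna3, a receptor used with Nrp2 for Sema3f, had signals of 2.38, 2.61, 2.48 and 2.31 in WT and of 2.45, 2.51, 2.55 and 2.54 in the Nkx2-1cKO. The mutants lay within the WT range, with a difference of 0.067 (SE 0.083, 95% interval -0.12 to 0.25, limma adjusted p = 0.790). A dimmer Plxna3 probe gave -0.38 (adjusted p = 0.688), where Nkx2-1cKO replicate 3 alone read -1.77 and the other mutant arrays lay between -0.48 and -0.24.

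Plxna4, which signals with Nrp1 for Sema3a and also for Sema6a, had signals of 2.03, 1.53, 1.62 and 0.89 in WT and of 0.43, 1.38, 1.22 and 1.71 in the Nkx2-1cKO. Both groups were widely spread and overlapped. The difference was -0.33 (SE 0.29, 95% interval -0.98 to 0.32, limma adjusted p = 0.715). It was -0.16 without WT replicate 1, -0.54 without WT replicate 4, -0.080 without Nkx2-1cKO replicate 1 and -0.50 without Nkx2-1cKO replicate 4. The dimmer probes gave -0.29 and -0.49 with adjusted p of 0.657 and 0.621, so that all 3 probes had a negative value and none passed the threshold.

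Plxnd1, the receptor of Sema3e and a gene of endothelial cells, had signals of -0.46, -0.23, -0.23 and 0.14 in WT and of -0.57, -0.18, 0.23 and 0.050 in the Nkx2-1cKO. The groups overlapped along most of their range. The receptor differed by 0.078 (SE 0.18, 95% interval -0.33 to 0.49, limma adjusted p = 0.894), beside -1.63 for its ligand. Of 8 endothelial marker genes, 0 passed the threshold and 0 had an unadjusted limma p under 0.05. Their median log2 fold change was -0.0036, and their summed signal was 7.85 to 11.1 in WT and 8.41 to 10.65 in the Nkx2-1cKO. The marker Cldn5 weighed most in this sum. It averaged 2.61 ± 0.27 in WT and 2.67 ± 0.16 in the Nkx2-1cKO, and every other endothelial marker averaged below 0. How much of the Plxnd1 signal came from endothelial cells was not tested.

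**Figure D3:**
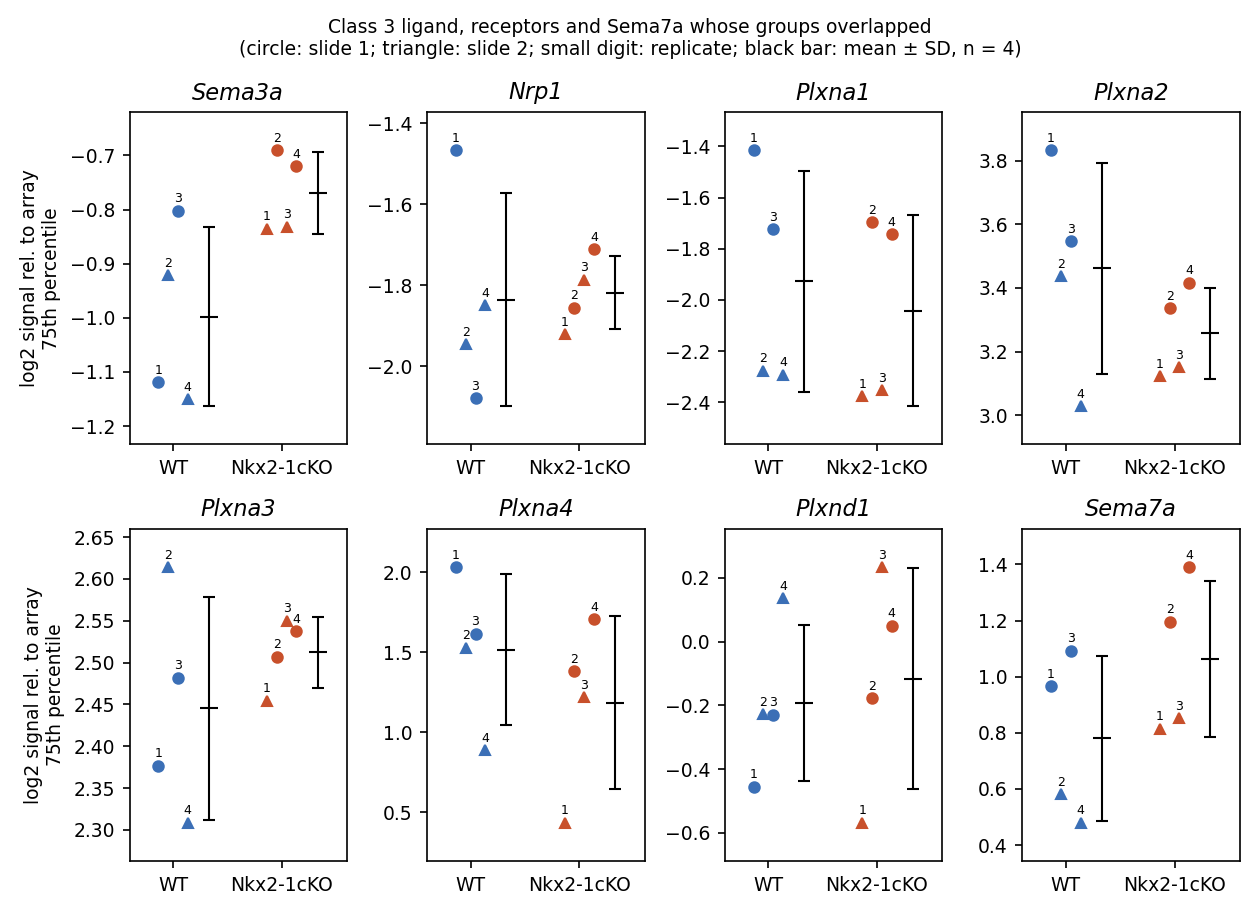
Log2 signal minus the 75th percentile of the array (y axis) in WT and Nkx2-1cKO for Sema3a, Nrp1, the A-group plexins, Plxnd1 and Sema7a. Circles are slide 1 and triangles slide 2, small digits are replicates, and black bars show the mean and SD of 4 arrays. The groups overlap in every panel, and in Plxna1 and Sema7a the slide 1 arrays lie above the slide 2 arrays of the same genotype.

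Of the other plexins, Plxnb1, the receptor of Sema4d, differed by -0.036 (SE 0.15, limma adjusted p = 0.943). Plxnc1, the receptor of Sema7a, differed by 0.064 (SE 0.082, limma adjusted p = 0.797). Plxnb3, a receptor of Sema5a, was dim, with signals of -4.19, -5.56, -5.74 and -5.63 in WT and of -6.25, -6.16, -6.19 and -5.95 in the Nkx2-1cKO. The groups did not overlap, and WT replicate 1 was far above the other WT arrays. The difference of -0.86 (SE 0.36, 95% interval -1.66 to -0.055, limma adjusted p = 0.541) was -0.49 without that array (adjusted p = 0.544), and -0.21 with normexp background correction.

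The semaphorins of classes 4 to 7, which are held at the cell membrane, overlapped between groups in all 13 genes. The 6 class 4 genes, which are transmembrane ligands mostly of B-group plexins, ran from -0.12 (Sema4d) to 0.20 (Sema4g), with 4 negative and 2 positive values and no adjusted p under 0.675 (limma). Sema4a, Sema4b, Sema4c and Sema4f lay between them. Leaving out 1 array moved Sema4g by over 1.5 times for WT replicate 1, to 0.068, and for Nkx2-1cKO replicate 3, to 0.13. Of the class 5 genes, ligands with thrombospondin repeats, Sema5b differed by 0.058 and Sema5a by 0.31 (SE 0.13, 95% interval 0.011 to 0.60, limma adjusted p = 0.568). In Sema5a, WT replicate 1 read 1.22, the other WT arrays 0.74 to 0.80 and the Nkx2-1cKO arrays 0.99 to 1.34. The overlap came from WT replicate 1 alone, and without it the difference was 0.42 (limma adjusted p = 0.185).

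The 4 class 6 genes, transmembrane ligands of A-group plexins, ran from -0.24 (Sema6a) to 0.19 (Sema6d), with Sema6b and Sema6c between them and no adjusted p under 0.641. Without WT replicate 1, Sema6a was at -0.11 and Sema6d at 0.13. On slide 1 the differences were -0.29 for Sema6a and 0.23 for Sema6d, and on slide 2 they were -0.18 and 0.16. Sema7a, a membrane-anchored semaphorin that acts through integrins and Plxnc1, differed by 0.28 (SE 0.17, 95% interval -0.11 to 0.67, limma adjusted p = 0.657), and by 0.18 without WT replicate 4 and 0.17 without Nkx2-1cKO replicate 4. On slide 1 Sema7a differed by 0.26 and on slide 2 by 0.30. Sema6a, Sema6d and Sema7a did not pass the threshold under any of the 19 alternatives, which included slide as a block. Over the 23 genes of all classes whose groups overlapped, the log2 fold change was between -0.33 and 0.31 and the SE between 0.076 and 0.29. Their 95% intervals reached no further than -0.98 and 0.67.

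Probes of the same gene did not always share a sign. Of 16 genes with more than 1 tested probe, 8 had all probes on one side of 0 (Sema3a, Sema3e, Sema3f, Sema5a, Sema6a, Sema6c, Plxna4 and Plxnb1). In the other 8 (Sema4c, Sema4d, Sema5b, Sema6d, Nrp1, Plxna2, Plxna3 and Plxnc1) the probes lay on both sides of 0, and no probe of these 8 genes passed the threshold.

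The slide on which an array lay also separated some of these genes. In a limma fit with genotype and slide, whose slide term was examined after seeing the data, that term passed the threshold in 6 of the 28 genes, or 21.4%, where it passed in 15.9% of all tested genes. Plxna1 had a slide term (slide 2 minus slide 1) of -0.68 (SE 0.090, adjusted p = 0.00186). It was -0.48 for Sema7a and -0.43 for Sema6a, and it was 0.27 for Sema6d, 0.34 for Plxnb1 and 0.35 for Sema6c. For Sema3e it was -0.00051 (SE 0.089). Since both slides held 2 arrays of each genotype, these differences enter the spread of the genotype comparison and not its mean.

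**Figure D4:**
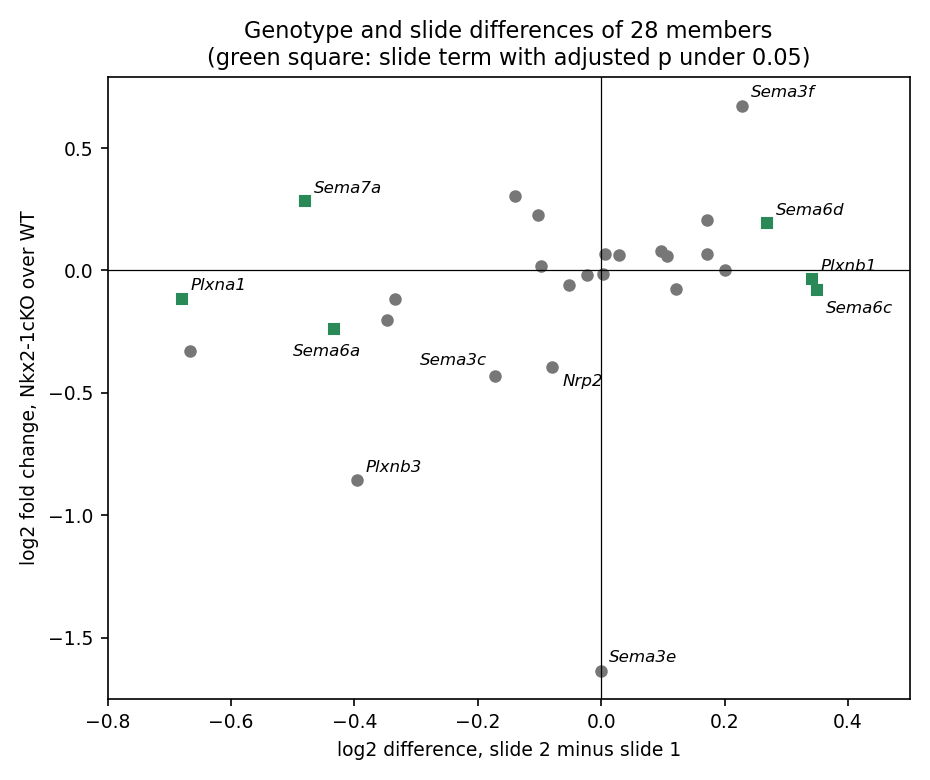
Difference between slides (x axis, log2, slide 2 minus slide 1) against log2 fold change between genotypes (y axis) for the 28 tested genes. Green squares mark the 6 genes whose slide term had an adjusted p under 0.05. Sema3e lies at -1.63 between genotypes and near 0 between slides, and Plxna1 at -0.68 between slides and -0.12 between genotypes.

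Downstream of the receptors, a list of 35 co-receptors and effectors was examined, with adhesion co-receptors, collapsin response mediator proteins, MICAL oxidases, and small GTPases with their exchange factors. Of these, 32 were tested and 0 passed the threshold in limma in either direction, and 2 were lower and 2 higher at an unadjusted p under 0.05, where 5.22% and 4.26% of all tested genes were. In 1 of the 32 all mutant arrays lay below all WT arrays and in 2 above, where 4.02% and 2.82% of all tested genes did so. The median log2 fold change of the list was 0.012, and its summed signal was 211 to 217 in WT and 207 to 219 in the Nkx2-1cKO.

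Markers of other cells were compared because several semaphorins are made outside neurons. Of 8 mesenchymal markers, 1 fell (Pdgfra, a gene also of oligodendrocyte precursors) and 0 rose, and the median of the list was -0.96 on the log2 scale. The summed signal of the list was 7.95 in WT replicate 4, 1.72 to 2.27 in the other WT arrays and 1.53 to 2.15 in the Nkx2-1cKO. The marker Lum was well above background on 2 of 4 arrays in each group, and Twist1 on 4 WT arrays and 1 Nkx2-1cKO array. Without WT replicate 4 the log2 fold change of Sema3e was -1.67 (limma adjusted p = 0.000315) and the part of mesenchymal cells in any member's values was not tested. Of 7 microglial, 6 erythroid, 8 pallial and 7 dividing progenitor markers, 0 passed the threshold and 0 had an unadjusted limma p under 0.05, with median log2 fold changes of 0.050, 0.0048, -0.080 and 0.11.

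**Figure D5:**
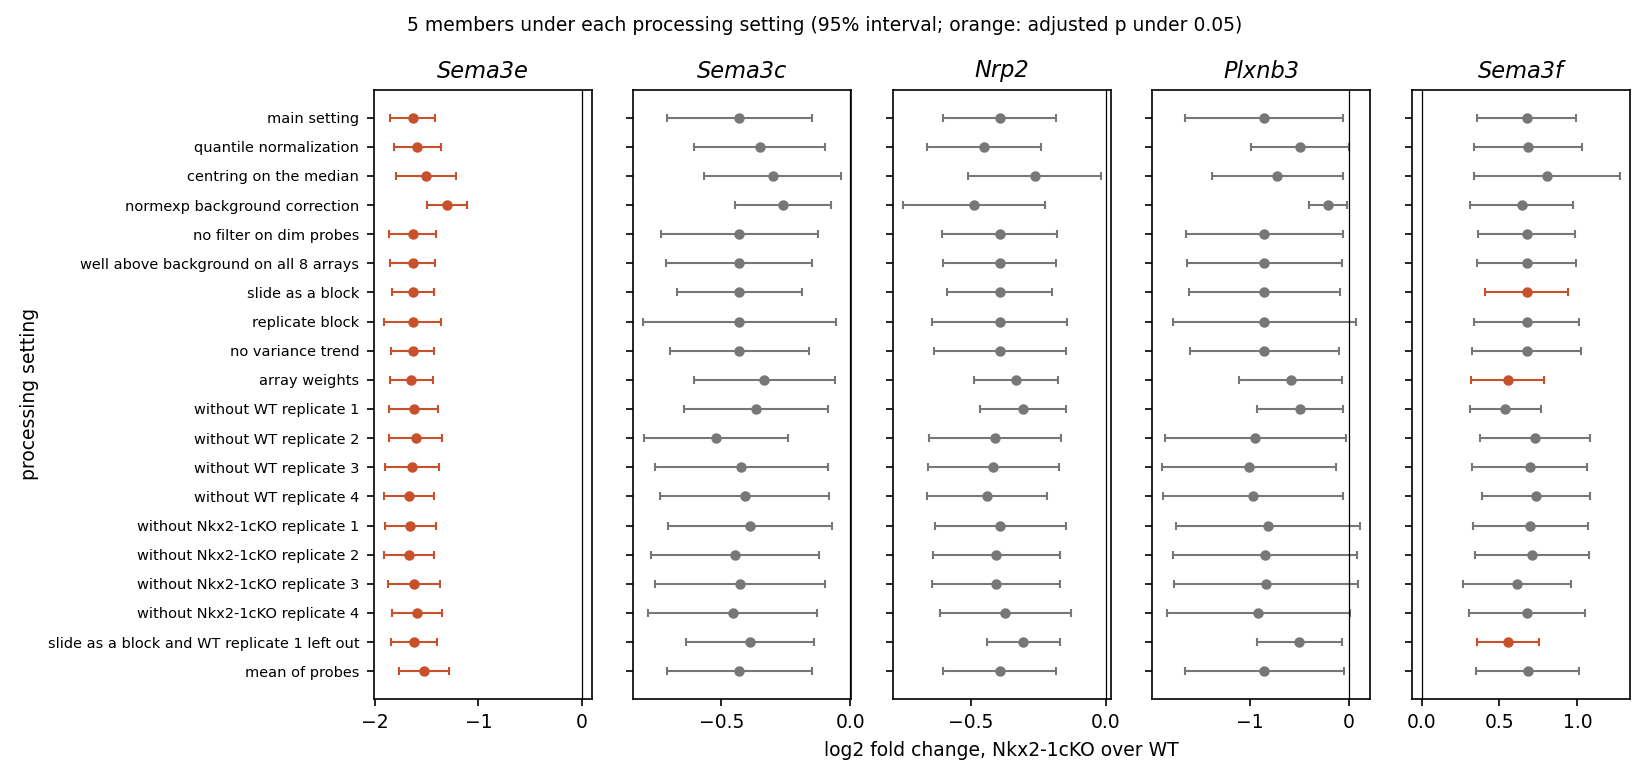
Log2 fold change (x axis, Nkx2-1cKO over WT) with its 95% interval for the 5 genes whose groups did not overlap, under the main setting and 19 alternatives (y axis). Orange marks an adjusted p under 0.05. Sema3e is orange throughout, and Sema3f in 3 alternatives, with slide as a block, with array weights and with slide as a block after WT replicate 1 was left out.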

How the data were processed

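The authors deposited Agilent Feature Extraction output for 8 arrays, in which the intensity of each spot had its background subtracted within the array. The submitters' processing notes name version 10.1 of that software, and the file headers name 10.7.3.1. Here, after removal of control and outlier spots, the deposited intensity was put on a log2 scale, the 75th percentile of its array was subtracted, and spots of a probe were averaged. Accessions of 24844 of 41174 probes were matched to 17178 symbols in RefSeq GRCm38.p6. Of the family's entries there, Plxnb2, Sema3g and Plxna4os1 were not analysed here. Probes well above background on 4 or more of 8 arrays (31283, with 53 missing values and 0 saturated spots) were fitted in limma 3.58.1 (R 4.3.3) by lmFit and by eBayes with its trend option. The number of arrays limits the precision.

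Samples were grouped by title. The members, gene lists and tests were chosen with earlier results of these data known. Values on each array are given for genes past the threshold, genes whose groups did not overlap, and Nrp1, Nrp2, Sema3a, Sema3f, the A-group plexins and Plxnd1, while other members are given by fold change, range or count, and co-receptors and effectors by name only past the threshold. In simulated data of 31283 probes, 64% of 200 probes made to differ by 1 (log2) were found, and 6 of 134 calls were false. The simulated noise was independent between probes and arrays, with no slide difference and no shared shift of WT replicate 1. These shares therefore need not hold for the real arrays. Alternatives were other normalizations, background correction, filters, slide or replicate number as a block, a constant variance prior, array weights, the mean of probes and leaving out each array. Deviations of same-numbered arrays from their group means had correlations from -0.481 to -0.194. In each such pair the WT and Nkx2-1cKO arrays lay on different slides, so slide differences enter these values. They cannot show whether same-numbered samples were paired. No pairing was assumed in the main setting, and replicate number as a block was an alternative.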

Additional observations from a re-analysis of the deposited data

Results flagged for a closer look

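In 3 of 56 sets of 4 arrays (28 genes in each genotype), the array farthest out lay apart from the rest of its set by more than a Dixon test at 95% allows, where about 1 in 20 sets, or 2.8, is flagged by chance. Sema5a read 1.22 in WT replicate 1 and 0.74 to 0.80 in the other WT arrays. Sema6b read 0.88 in Nkx2-1cKO replicate 3 and 0.52 to 0.56 in the other Nkx2-1cKO arrays. Plxnb3 read -4.19 in WT replicate 1 and -5.74 to -5.56 in the other WT arrays.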

How the results depend on the processing

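Sema3e kept its direction and stayed past the threshold under all 19 alternatives, and 14 of the 28 genes kept their sign under all of them. The number of genes that fell was 1 in every setting. The number that rose was 0 in the main setting and 1 (Sema3f) with slide as a block, with array weights, and with slide as a block and WT replicate 1 left out, an alternative added after seeing the data. With the replicate block, Sema3e was at -1.63 (limma adjusted p = 0.00666) and Sema3f at 0.67 (adjusted p = 0.247), no call among the 28 genes changed, and calls over all genes went from 123 lower and 71 higher to 46 and 6. Over all genes, 76 were lower and 46 higher with centring on the median, 114 and 45 without the variance trend, 158 and 116 with slide as a block, 176 and 110 with array weights, and 90 to 114 and 34 to 68 when 1 array was left out. Centring on the median took the median of all probes from -0.04 to 0.089.

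The other 14 genes were within 0.12 of 0 in the main setting and changed sign under some alternatives without passing the threshold, and the cause was not tested. With quantile normalization, the values were 0.028 for Sema3b, 0.13 for Sema4b and -0.036 for Sema4c. With centring on the median, the values were 0.070 for Sema3b, 0.053 for Sema4a, 0.11 for Sema4b, 0.013 for Sema4d, 0.11 for Sema4f, 0.051 for Sema6c, 0.014 for Plxna1 and 0.093 for Plxnb1. With normexp background correction, the values were 0.051 for Sema3b, 0.072 for Sema4b, -0.0032 for Sema4c and 0.0013 for Sema4f. With array weights, the values were 0.0053 for Sema3b, 0.018 for Sema4b, -0.055 for Sema4c and 0.086 for Plxna1. With slide as a block and WT replicate 1 left out, the values were 0.025 for Sema3b, 0.023 for Sema4b, -0.0043 for Sema4c and -0.0070 for Plxnd1. With the mean of probes, the values were -0.023 for Sema4c, 0.010 for Sema4d, -0.094 for Nrp1, -0.16 for Plxna3 and -0.030 for Plxnc1. Leaving out 1 array gave -0.11 to 0.020 for Sema3b, -0.060 to 0.020 for Sema4b, -0.054 to 0.058 for Sema4c, -0.082 to 0.021 for Sema4f, -0.016 to 0.11 for Sema6b, -0.064 to 0.14 for Nrp1, -0.24 to 0.055 for Plxna1, -0.14 to 0.047 for Plxnb1 and -0.038 to 0.23 for Plxnd1.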
